A study of Mus musculus with 16 samples.

Results

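The comparison described here is that of the MEK inhibitor PD0325901 with its vehicle in mice that lack Spry4 in the germline, all of them recovering from busulfan. It rests on 8 of the 16 RNA-seq libraries of the series, 4 from inhibitor-treated and 4 from vehicle-treated knockout mice, assigned by the treatment named in the label of each library. The features are the 12907 of 16383 listed genes that reached at least 1 FPKM (fragments counted on a gene, scaled by transcript length and library size) in 4 or more of the 16 libraries, and the other 3476 genes were left out.

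Undifferentiated spermatogonia, the testis fraction that holds the spermatogenic stem cells, were sorted by FACS from adult mice, and polyadenylated RNA was sequenced with a stranded kit. Every mouse of the series had received busulfan, an alkylating agent that kills germ cells, once at 10 mg/kg by intraperitoneal injection. From day 3 the mice were injected daily for 7 days, either with PD0325901 at 2.5 mg/kg or with 10% DMSO in PBS, and the cells were taken on day 10. The vehicle group (Spry4 germline knockout, busulfan, DMSO) and the inhibitor group (Spry4 germline knockout, busulfan, PD0325901) therefore differed, by their labels, in the inhibitor alone, and the 2 wild-type groups of 4 libraries each, treated in the same ways, served as a reference. The column headers of the knockout libraries carry the tag GCRT and those of the wild-type libraries the tag Spry4ff. The labels do not spell out these tags, the line that removes Spry4 or the part of the gene removed, so effects of whatever GCRT stands for and of losing Spry4 cannot be told apart. Within the knockout both treatment groups share it. The labels do not say whether each library came from its own mouse, and every p-value here therefore reflects library-to-library spread only, which may be technical in part.

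Growth factor receptors such as the GDNF receptor (Ret with its co-receptor Gfra1) and the FGF receptors activate RAS, RAF, MEK and ERK kinases in turn, and in spermatogonial stem cells GDNF signalling is known for maintaining self-renewal. ERK raises transcription of its own inhibitors, among them the Sprouty and Spred proteins and the Dusp phosphatases, and of the ETS factors Etv1, Etv4 and Etv5, so these transcripts are widely used as a readout of the pathway. SPRY4 restrains signalling from receptor tyrosine kinases to ERK, and PD0325901 blocks the kinases MEK1 and MEK2, directly upstream of ERK.

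Spry4 transcripts remained in every knockout library. Spry4 stood at 12, 10.1, 7.28 and 14.7 FPKM in vehicle libraries 1 to 4, and at 13.0, 8.23, 11.0 and 19.3 FPKM in inhibitor libraries 1 to 4. The group means were 11.0 ± 3.13 and 12.9 ± 4.71 FPKM (SD, n = 4), and the ranges overlapped, with inhibitor library 4 above every vehicle library. The inhibitor contrast was 0.19 on the log2 scale, with a two-sided exact permutation p of 0.6 over the 4 against 4 libraries. Against wild type, the vehicle knockout mean was 49.9% of the vehicle wild-type mean (exact permutation p = 0.0286, the smallest this design allows), and the inhibitor knockout mean was 60.0% of the inhibitor wild-type mean (exact permutation p = 0.0571). The FPKM value covers the whole gene, and reads from a part that was not removed count towards it. Within each knockout group the libraries had the same order by Spry4 as by the summed level of peritubular myoid markers given in the next paragraph, highest in library 4 and then library 1, and the part of these cells in the remaining Spry4 signal was not tested.

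The sorted fraction carried the markers of undifferentiated spermatogonia. Zbtb16, the zinc finger factor PLZF of undifferentiated spermatogonia, stood between 103 and 122 FPKM in the 8 knockout libraries, and Ret between 67.0 and 98.8 FPKM. Kit, the receptor that marks differentiating spermatogonia, stood between 1.46 and 3.29 FPKM. Transcripts of other testis cells were present too. Acta2, smooth muscle actin of peritubular myoid cells, stood at 1750, 988, 538 and 2910 FPKM in vehicle libraries 1 to 4 and at 1800, 1350, 1800 and 3940 FPKM in inhibitor libraries 1 to 4. The 15 peritubular markers summed to 1426.8 to 7283.5 FPKM with vehicle and to 3434.2 to 9979.2 FPKM with the inhibitor, so that the ranges overlap widely but the vehicle group extends lower. Vehicle library 3 stands apart by its spermatid transcripts, since the 18 spermatid markers summed to 3486.1 FPKM there against 27.5 to 184.1 FPKM in the other knockout libraries. In bulk RNA of sorted cells, fewer cells of a type and less RNA per cell cannot be told apart. The library divisors recovered from the FPKM steps lay between 24096300 and 36613200 reads in the 8 knockout libraries, and 12257 to 12805 genes reached 1 FPKM in each.

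Across all genes, 10 days after busulfan and at the end of 7 daily inhibitor doses, no gene of the knockout passed the test. With limma on log2(FPKM + 0.5), fitted over all 16 libraries, 0 of 12907 genes (0%) had a Benjamini-Hochberg adjusted p below 0.05, and the smallest adjusted p was 0.968. At an unadjusted p below 0.05 there were 382 genes (2.96%), 148 higher (1.15%) and 234 lower (1.81%) with the inhibitor. Scaling each library by its median ratio to the mean library gave 166 higher and 165 lower, and leaving out vehicle library 3 gave 258 higher and 194 lower. Without inhibitor library 2 the counts were 135 higher and 570 lower. The count test limma voom on the recovered reads also called 0 genes, with 399 of 12467 at an unadjusted p below 0.05. In 220 genes (1.7%) the 4 inhibitor libraries lay wholly outside the range of the 4 vehicle libraries, 71 above it (0.55%) and 149 below it (1.15%). Without any difference, about 0.05 of genes would reach the unadjusted threshold and about 0.0286 would have separate ranges. The 2.96% of the main fit and the 1.7% lie below these shares. Some alternative fits gave a share above 0.05 at the unadjusted threshold, the most being 1709 of 12907 genes with array weights, with 0 past the adjusted threshold.

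The differences were small for most genes. The median size of the log2 difference was 0.105, and the 95th percentile was 0.45, beside a median standard error of 0.146. Only 35 genes (0.27%) differed by more than 1 on the log2 scale, and the log2 differences of all genes centred on 0.002, with 50.5% of genes higher. The plot of all genes shows this cloud with the genes of separate ranges marked. All differences use log2(FPKM + 0.5), and the added 0.5 makes those of genes at low FPKM smaller than the ratio of their means.

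**Figure D1:**
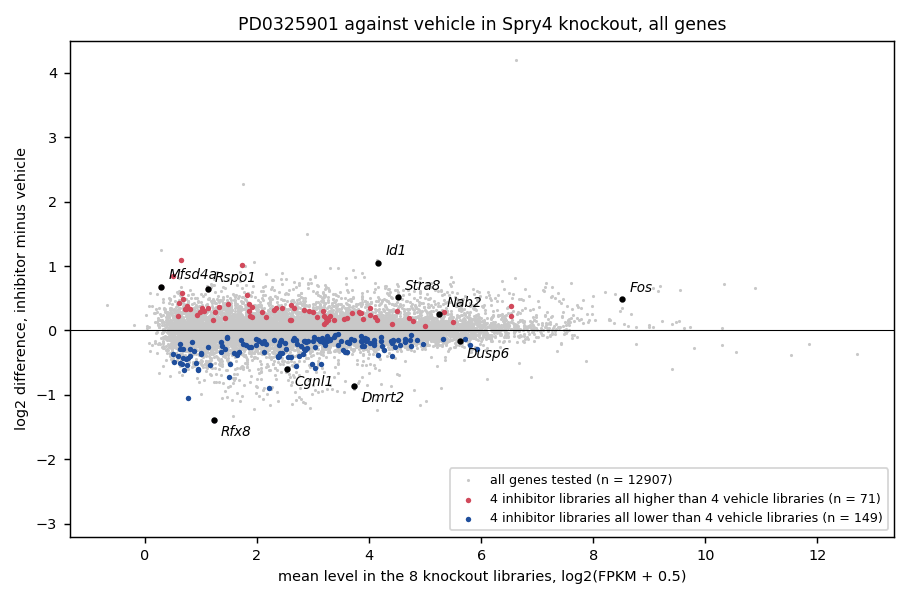
Log2 difference (inhibitor minus vehicle, Spry4 knockout) against the mean level of the 8 knockout libraries in log2(FPKM + 0.5), 1 point per gene tested. The 71 genes with all 4 inhibitor libraries above all 4 vehicle libraries and the 149 with all 4 below are marked in a cloud centred on 0, and the smallest differences of the protein-coding ones, 0.08 higher and 0.06 in size lower, are under the median size of 0.105. The point at 4.20 is a processed pseudogene whose libraries overlap.

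The receptors upstream of ERK did not pass the test in either direction. Of the 23 tested genes among ERK receptors and ligands, 13 were higher and 10 lower with the inhibitor, with a median log2 difference of 0.02 (-0.03 to 0.11 when single knockout libraries were left out), and 0 had an adjusted p below 0.05. Gfra1, the GDNF-binding co-receptor, stood at 37.2, 43.7, 41.5 and 46.0 FPKM with vehicle and at 36.3, 42.3, 29.8 and 35.6 FPKM with the inhibitor. Its log2 difference was -0.23 ± 0.16 (SE; limma, unadjusted p = 0.181). Ret, the signalling receptor of GDNF, stood at 76.7, 90.6, 85.0 and 98.8 FPKM with vehicle and at 67.0, 80.0, 72.2 and 74.3 FPKM with the inhibitor. Only inhibitor library 2 reached into the vehicle range of Ret, and the log2 difference was -0.25 ± 0.13 (SE; limma, unadjusted p = 0.0768). Both receptors were lower by a like amount in wild type, Gfra1 by a log2 difference of -0.19 and Ret by -0.20.

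Erbb2, an EGF-family receptor, was the receptor gene with the smallest p. It stood at 10.7, 11.4, 11.1 and 11.2 FPKM with vehicle and at 10.3, 15, 17.1 and 14.8 FPKM with the inhibitor. Inhibitor libraries 2 to 4 lie above every vehicle library and inhibitor library 1 lies below all of them, giving a log2 difference of 0.33 ± 0.13 (SE; limma, unadjusted p = 0.026). Fgfr1, an FGF receptor, stood between 14.7 and 34.7 FPKM with vehicle and between 19.7 and 37.7 FPKM with the inhibitor, a log2 difference of 0.25.

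Transcripts of the kinase cascade itself centred near no difference. Of 23 tested RAS, RAF, MEK and ERK core genes, 11 were higher and 12 lower, with a median of -0.03. Rasa1, a GTPase-activating protein that switches RAS off, had the smallest p of this list. Rasa1 stood at 20, 21.7, 20 and 16.2 FPKM with vehicle and at 17.0, 18.3, 13.8 and 10.6 FPKM with the inhibitor, and the ranges overlapped. The log2 difference was -0.39 ± 0.15 (SE; limma, unadjusted p = 0.017), against 0.08 in wild type, and the test of the difference between genotypes gave an unadjusted p of 0.0358.

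The feedback inhibitors of ERK were not lower as a list. Of the 14 tested, 9 were higher and 5 lower with the inhibitor, with a median log2 difference of 0.04, and 0 reached even an unadjusted p below 0.05. The median was -0.09 without inhibitor library 4 and 0.15 without vehicle library 4. Among vehicle libraries the mean log2 level of the list was lowest in library 3 (4.127) and highest in library 4 (4.661), as were the peritubular sums. The part of these cells in the list was not tested. Dusp6, a cytoplasmic phosphatase specific for ERK, was nearly constant across the vehicle libraries, at 51.3, 50.9, 51.0 and 51.3 FPKM. With the inhibitor Dusp6 stood at 52.4, 49.7, 37.7 and 43.2 FPKM, so that libraries 3 and 4 were lower and libraries 1 and 2 were not. Its log2 difference was -0.17 ± 0.15 (SE; limma, unadjusted p = 0.275), beside -0.10 in wild type.

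Spred1, a membrane-bound inhibitor of RAF activation, stood at 18, 20.5, 16.6 and 14.7 FPKM with vehicle and at 17.3, 18.5, 13.2 and 12.1 FPKM with the inhibitor, a log2 difference of -0.19. The related Spred2 differed by -0.07. Il17rd, also named Sef, an inhibitor of FGF signalling, differed by -0.13, from 10.9 ± 0.26 to 9.93 ± 0.559 FPKM (SD, n = 4), and was lower by 0.15 on the log2 scale in wild type as well. Dusp4, a nuclear ERK phosphatase, stood between 17.4 and 30.1 FPKM with vehicle and between 15.4 and 21.3 FPKM with the inhibitor. The Dusp4 log2 difference of -0.20 became -0.02 without vehicle library 4, which held its highest value.

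The other feedback genes leaned to the other side or lay near 0. Dusp5, another nuclear ERK phosphatase, and Dusp9 had log2 differences of 0.19 and 0.21, and their wild-type differences were -0.21 and -0.13. Leaving out single knockout libraries gave 0.03 to 0.41 for Dusp5 and 0.09 to 0.30 for Dusp9, both lowest without vehicle library 1. Spry1 and Spry2, the paralogs of Spry4, were both at 0.04, and Dusp7 was at 0.03. Each of these last 3 turned negative when single libraries were left out. Spry1 and Spry2 were also negative when the levels of the peritubular and spermatid lists were terms of the fit. In the plot of ERK pathway genes, the red and blue points of each knockout panel overlap.

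**Figure D2:**
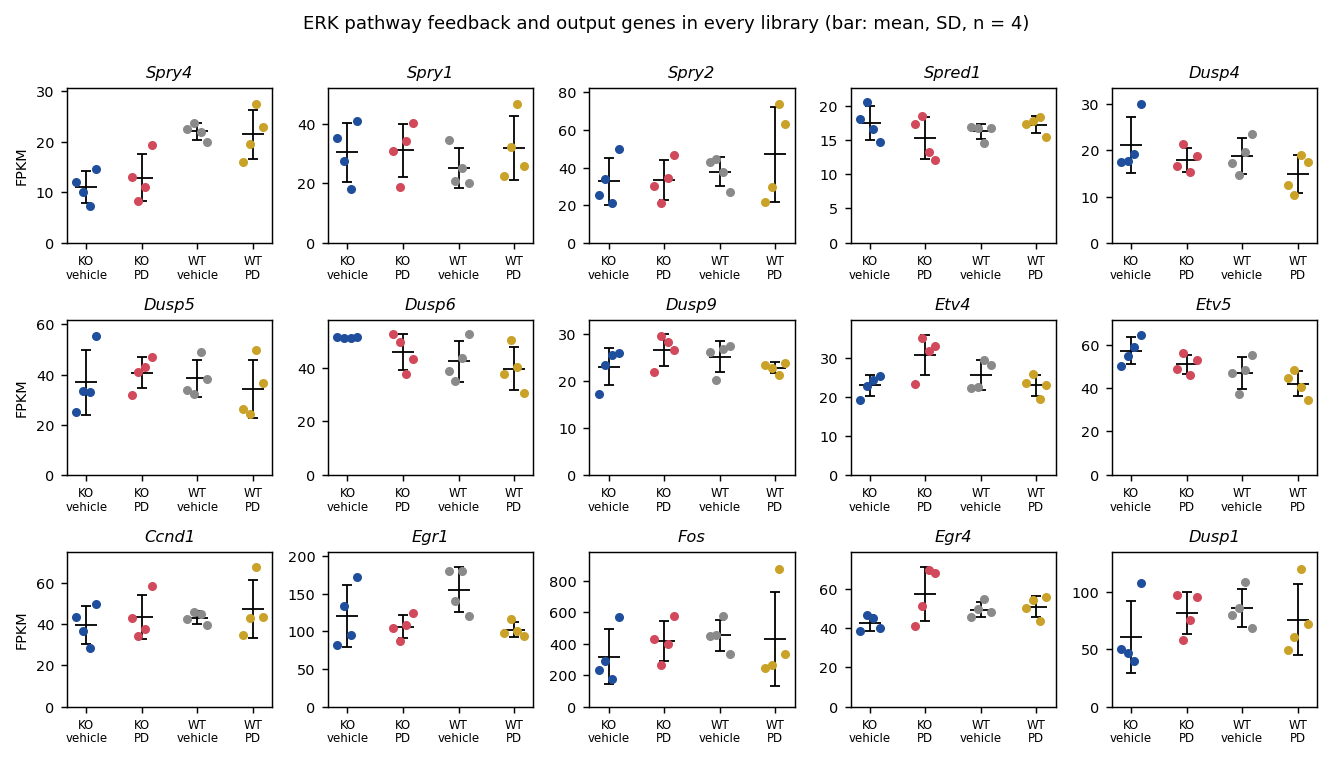
FPKM of ERK feedback and output genes in each of the 16 libraries (points), with the group mean and SD (bars, n = 4), for knockout (KO) and wild type (WT) with vehicle or PD0325901 (PD). Dusp6 sits between 50.9 and 51.3 FPKM in the knockout vehicle libraries and between 37.7 and 52.4 FPKM with the inhibitor, and for Etv4 only inhibitor library 1, at 23.3 FPKM, falls within the vehicle range.

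The PEA3 factors did not move as one. Etv4 stood at 19.2, 22.8, 24.2 and 25.3 FPKM with vehicle and at 23.3, 35.1, 31.7 and 32.9 FPKM with the inhibitor. Inhibitor libraries 2 to 4 lie above all vehicle libraries, and the group means were 22.9 ± 2.66 and 30.8 ± 5.14 FPKM (SD, n = 4). The log2 difference of Etv4 was 0.41 ± 0.14 (SE; limma, unadjusted p = 0.0104), it stayed between 0.33 and 0.54 when any one knockout library was left out, and in wild type it was -0.15. The test of that difference between genotypes gave 0.56 ± 0.20 (SE; limma, unadjusted p = 0.013), which does not pass after adjustment.

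Etv5, a GDNF-regulated factor needed for stem cell maintenance, had values of 50.2, 55.0, 59.3 and 64.9 FPKM with vehicle and of 48.9, 56.2, 46.4 and 53.1 FPKM with the inhibitor. Its ranges overlapped, and the log2 difference was -0.16 in both genotypes (SE 0.13 in the knockout; limma, unadjusted p = 0.225). Etv1 was near the filter, at 1.14 ± 0.539 and 1.16 ± 0.428 FPKM (SD, n = 4).

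The wider list of ERK output genes had 12 of 20 tested members higher, with a median log2 difference of 0.07 and 0 members past the adjusted threshold. That median was -0.11 when the levels of the peritubular and spermatid lists were terms of the fit, -0.06 without vehicle library 3 and 0.22 without vehicle library 4. Ccnd1, cyclin D1 of G1 entry, stood at 43.4, 36.8, 28.7 and 49.9 FPKM with vehicle and at 42.9, 34.6, 37.9 and 58.9 FPKM with the inhibitor. Myc, a growth-promoting transcription factor, ranged from 5.80 to 23.4 FPKM with vehicle and from 8.25 to 20.7 FPKM with the inhibitor. Phlda1 differed by -0.11, with values between 10.8 and 18.4 FPKM in the 8 libraries.

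The immediate early genes, which are transcribed within minutes of a stimulus, were mostly higher with the inhibitor, with none past the adjusted threshold. Of 26 tested, 23 were higher and 3 lower, and the median log2 difference was 0.40, against 50.5% higher and 0.002 over all genes. One member (Egr4) had an unadjusted p below 0.05, beside 2.96% of all genes tested. In wild type the median of the same genes was -0.28. The wild-type inhibitor libraries differed widely, with sums of this list at 1617.1, 1677.5, 5242.9 and 3910.1 FPKM in libraries 1 to 4. Their peritubular sums were 1552.3, 1217.5, 12168.1 and 7994.8 FPKM, and the part of these cells in the wild-type median was not tested.

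Fos, a subunit of the AP-1 transcription factor, stood at 232.0, 287.3, 176.6 and 571.0 FPKM with vehicle and at 426.7, 267.1, 396.5 and 573.7 FPKM with the inhibitor. Vehicle library 4 was nearly as high as the highest inhibitor library, while vehicle libraries 1 and 3 lay below every inhibitor library. The log2 difference of Fos was 0.49 ± 0.41 (SE; limma, unadjusted p = 0.254).

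Dusp1, a stress-induced phosphatase, stood at 49.6, 46.2, 39.6 and 107 FPKM with vehicle and at 97.0, 57.8, 75.2 and 94.9 FPKM with the inhibitor. Vehicle library 4 alone exceeded the inhibitor libraries. Klf2, a Kruppel-like factor, had the same layout, with 42.3, 40.8, 31.3 and 153 FPKM against 86.2, 59.0, 99.9 and 143 FPKM. The log2 differences were 0.51 for Dusp1 and 0.78 for Klf2.

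Egr4, a zinc finger factor of the EGR family, stood at 38.3, 46.5, 45.3 and 39.9 FPKM with vehicle and at 41.1, 51.5, 69.6 and 68.4 FPKM with the inhibitor. Its log2 difference was 0.41 ± 0.15 (SE; limma, unadjusted p = 0.014). Egr1, an EGR factor used as an ERK readout, went the other way in its means, from 121 ± 41.0 to 106 ± 15.2 FPKM (SD, n = 4), a log2 difference of -0.13, and was at -0.58 in wild type. Ier3, another early ERK target, differed by 0.20.

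The size of the immediate early difference moved with single libraries and with the other cell types. Without vehicle library 4 the median was 0.72, without vehicle library 3 it was 0.24, and without vehicle library 1 it was 0.21. With the peritubular and spermatid levels as terms of the fit it was 0.14, with 19 of 26 higher. Summed FPKM of the list ran from 1380.4 to 4246.8 with vehicle and from 1958.6 to 3734.5 with the inhibitor. Peritubular sums moved with it, as vehicle library 3 was lowest and vehicle library 4 highest of the vehicle group in both, and the part of these cells in the difference was not tested further.

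Because the immediate early genes leaned together, the sequence before their start sites was searched for the core of the cAMP response element, written TGACGT on one strand and ACGTCA on the other, which CREB and related factors bind. In the 250 bases before the RefSeq start (GRCm38.p6), 7 of the 21 immediate early genes with an entry (33.3%) held at least 1 match, beside 1140 of 9736 tested genes with an entry (11.7%). A match is a description of the sequence and not evidence of binding. The sequences of Fos, Egr4 and Dusp1 are shown as 3 of the 7 genes that hold a match, chosen for that and because their values are described above. Fos lies at chr12:85473640-85473889 on the plus strand, with 1 match that begins 66 bases before the start. Egr4 lies at chr6:85513590-85513839 on the minus strand, with matches at 178 and 110 bases. Dusp1 lies at chr17:26508473-26508722 on the minus strand, with matches at 191, 143 and 141 bases, the last 2 overlapping as the full palindrome. Capitals mark the matches.
Fos: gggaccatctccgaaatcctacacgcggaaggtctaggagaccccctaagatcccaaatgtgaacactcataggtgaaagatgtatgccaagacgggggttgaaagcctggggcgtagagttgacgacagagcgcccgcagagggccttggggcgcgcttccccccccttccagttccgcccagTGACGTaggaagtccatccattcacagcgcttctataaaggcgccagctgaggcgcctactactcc
Egr4: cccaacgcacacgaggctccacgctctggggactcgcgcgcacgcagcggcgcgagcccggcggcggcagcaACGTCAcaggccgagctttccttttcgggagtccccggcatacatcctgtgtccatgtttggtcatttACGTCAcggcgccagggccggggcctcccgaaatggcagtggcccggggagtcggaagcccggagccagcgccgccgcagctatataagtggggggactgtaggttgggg
Dusp1: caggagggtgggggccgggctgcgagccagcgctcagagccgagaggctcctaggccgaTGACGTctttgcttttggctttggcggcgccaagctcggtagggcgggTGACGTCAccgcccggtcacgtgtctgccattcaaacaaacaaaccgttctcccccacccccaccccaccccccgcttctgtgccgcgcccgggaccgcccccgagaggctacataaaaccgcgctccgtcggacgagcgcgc

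Stem cell genes were mostly lower with the inhibitor and progenitor genes mostly higher, by differences that no member passed after adjustment. Of 21 tested stem cell markers, 16 were lower and 5 higher, with a median log2 difference of -0.15. Of 15 tested GDNF-responsive stem cell genes, several of them on both lists, 12 were lower and 3 higher, with a median of -0.16. In wild type the median was -0.21 for both lists. At an unadjusted p below 0.05 there were 2 stem cell markers and 3 GDNF-responsive genes, all lower, beside 1.81% of all genes tested that were lower at that p. The 2 stem cell markers, Shisa6 and T, are themselves among the 3 GDNF-responsive genes, the other being Cxcr4. Without vehicle library 4 the stem cell median was -0.05, without inhibitor library 3 it was -0.06, and the GDNF-responsive median ran from -0.23 to -0.10 over the libraries left out. Peritubular markers differed in the other direction, with 12 of 14 tested higher and a median of 0.63, and with their level and the spermatid level as terms of the fit the stem cell median was -0.12.

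T, which encodes brachyury, a T-box factor, stood at 8.62, 13.1, 13.6 and 13.0 FPKM with vehicle and at 7.47, 9.63, 5.58 and 9.34 FPKM with the inhibitor. Vehicle library 1 was the only vehicle library within the inhibitor range. The log2 difference of T was -0.57 ± 0.25 (SE; limma, unadjusted p = 0.0396), and in wild type it was -0.60, with an unadjusted p of 0.931 for the difference between genotypes.

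Cxcr4, the receptor of the niche chemokine CXCL12, had values of 5.39, 8.19, 7.94 and 7.45 FPKM with vehicle and 5.04, 4.38, 4.83 and 4.74 FPKM with the inhibitor. The ranges did not overlap, and the log2 difference was -0.55 ± 0.23 (SE; limma, unadjusted p = 0.0354), against -0.05 in wild type. Shisa6, a Wnt-modulating membrane protein found in stem cells, was at 1.07, 1.17, 1.37 and 2.28 FPKM with vehicle and at 0.83, 0.886, 0.652 and 0.653 FPKM with the inhibitor. Its ranges also did not overlap, at low levels, with log2 differences of -0.62 in the knockout and -0.43 in wild type. Shisa6 reached 1 FPKM only in the vehicle knockout libraries and in wild-type vehicle library 4 (1.44 FPKM). It was therefore tested only because of its values in the vehicle knockout group.

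Not all stem cell regulators were lower. Nanos2, an RNA-binding protein that keeps stem cells undifferentiated, stood at 4.30, 3.60, 5.34 and 5.28 FPKM with vehicle and at 4.49, 5.36, 5.03 and 5.68 FPKM with the inhibitor, a log2 difference of 0.15 ± 0.16 (SE), against the direction of the list. Id4, an inhibitor of basic helix-loop-helix factors that marks stem cells, had means of 25.7 ± 1.25 and 24.6 ± 2.23 FPKM (SD, n = 4), a log2 difference of -0.06.

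Genes of the undifferentiated state as a whole divided evenly, with 9 of 17 tested higher and a median of 0.01. Adgra3, also known as GPR125, a surface marker of spermatogonial progenitors, stood at 6.47, 7.59, 6.97 and 7.51 FPKM with vehicle and at 5.31, 4.64, 6.36 and 4.99 FPKM with the inhibitor. The groups are separate, with a log2 difference of -0.40 ± 0.12 (SE; limma, unadjusted p = 0.00456), against 0.03 in wild type and with an unadjusted p of 0.0218 for the difference between genotypes. Cdh1, E-cadherin, stood between 13.7 and 27.5 FPKM with vehicle and between 13.5 and 16.5 FPKM with the inhibitor. Zbtb16 differed by 0.06.

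Of 13 tested progenitor genes, 9 were higher and 4 lower, with a median of 0.21. Among them is Neurog3, a marker of progenitors that leave the stem cell state, at 6.62, 4.01, 3.83 and 2.27 FPKM with vehicle and 8.19, 4.51, 6.14 and 5.87 FPKM with the inhibitor. Its log2 difference was 0.57 ± 0.28 (SE; limma, unadjusted p = 0.064) and its wild-type difference was 0.44. Rarg, the retinoic acid receptor of progenitors, stood at 10.0, 11.1, 10.1 and 9.57 FPKM with vehicle and at 10.4, 11.7, 15.2 and 14.1 FPKM with the inhibitor.

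Inhibitor library 1 lies within the vehicle range of Rarg and the other 3 above it, with a log2 difference of 0.31 ± 0.12 (SE; limma, unadjusted p = 0.0243). Pou5f1, the pluripotency factor OCT4, had a log2 difference of 0.61 ± 0.30 and Sox3, a SOX factor of progenitors, one of 0.21 ± 0.17 (SE). The progenitor median was 0.08 without vehicle library 3, 0.07 without inhibitor library 3 and 0.08 with the peritubular and spermatid terms.

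**Figure D3:**
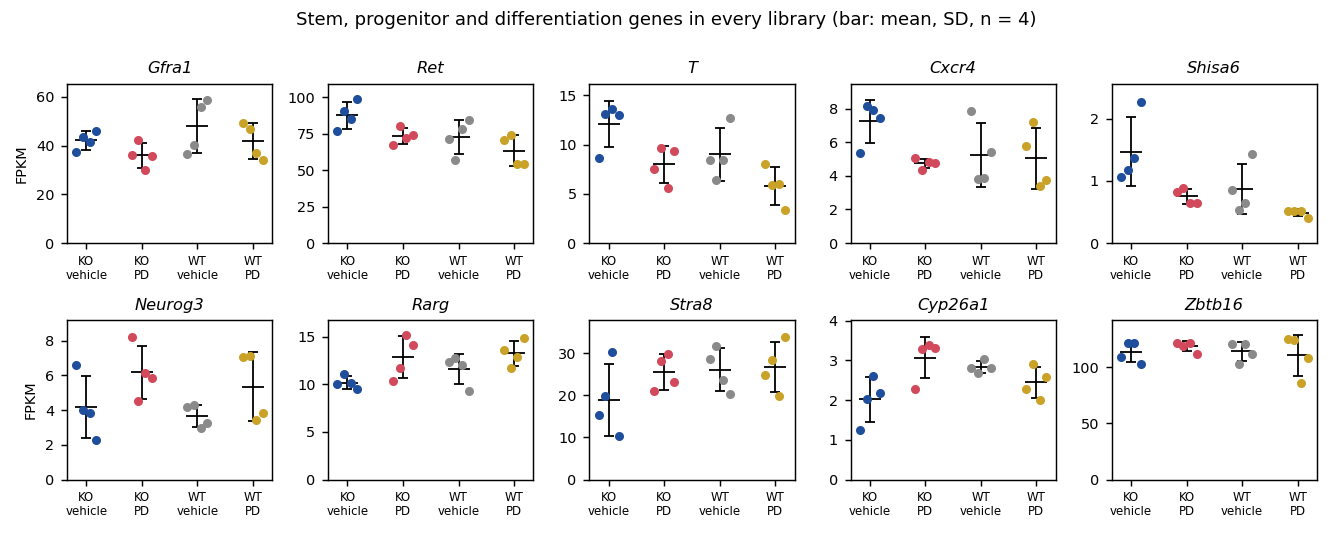
FPKM of stem cell, progenitor, retinoic acid and core genes in each of the 16 libraries (points), with the group mean and SD (bars, n = 4). Cxcr4 and Shisa6 are separate between the knockout groups, Stra8 and Rarg overlap, and Zbtb16 stands between 103 and 122 FPKM in the knockout.

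Retinoic acid drives spermatogonia into differentiation, and a list of its genes leaned higher. The list holds a receptor (Rarg) and a binding protein (Crabp1) as well as targets. Of 15 tested genes of the retinoic acid list, 10 were higher, with a median of 0.11 (0.01 without inhibitor library 4), and 3 had an unadjusted p below 0.05, all of them higher, beside 1.15% of all genes tested that were higher at that p. Cyp26a1, the enzyme that degrades retinoic acid and is itself a target, stood at 1.26, 2.04, 2.62 and 2.19 FPKM with vehicle and at 2.29, 3.29, 3.40 and 3.31 FPKM with the inhibitor. Only inhibitor library 1 fell within the vehicle range. The log2 difference was 0.51 ± 0.16 (SE; limma, unadjusted p = 0.00703), against -0.19 in wild type, and the unadjusted p for the difference between genotypes was 0.00886.

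Stra8, the retinoic acid target that precedes meiosis, stood at 15.3, 19.8, 30.3 and 10.3 FPKM with vehicle and at 20.9, 28.2, 29.9 and 23.2 FPKM with the inhibitor. Vehicle library 3, the library with spermatid transcripts, held the highest Stra8 value, and without single libraries the log2 difference of 0.51 ranged from 0.26 to 0.77. Crabp1, a retinoic acid binding protein, differed by 0.33 ± 0.15 (SE; limma, unadjusted p = 0.0485). Of 15 tested genes of differentiating spermatogonia, 13 were higher, with a median of 0.08, and without vehicle library 4 the count was 8 and the median 0.00. Sohlh1, a helix-loop-helix factor of differentiation, differed by 0.23, from 56.0 ± 7.58 to 65.7 ± 7.07 FPKM (SD, n = 4). Kit had means of 2.27 ± 0.764 and 2.49 ± 0.547 FPKM (SD, n = 4).

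The genes with the most separate values were of mixed function. From the genes with separate ranges, the 12 higher and the 12 lower with the smallest p were taken, leaving out predicted genes, so their values are a description of the choice. The test of the difference between genotypes contains the same contrast, so its p is also shaped by the choice of these genes. Rfx8, a member of the RFX family of transcription factors (ENSMUSG00000057173, chr1:39665301-39720997 on the minus strand of GRCm38), had the largest difference among them. It stood at 2.63, 2.44, 3.66 and 2.85 FPKM with vehicle and at 0.923, 0.757, 1.01 and 0.498 FPKM with the inhibitor. Every inhibitor library was below every vehicle library, with a log2 difference of -1.39 ± 0.32 (SE). Wild-type levels of Rfx8 were 0.893 ± 0.333 FPKM with vehicle and 1.61 ± 1.41 FPKM with the inhibitor (SD, n = 4), so the inhibitor-treated knockout lay in the range of vehicle-treated wild type, 0.52 to 1.29 FPKM, apart from inhibitor library 4. The difference between genotypes was -1.82 ± 0.46 (SE; limma, unadjusted p = 0.00136, smallest adjusted p of any gene 0.999).

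Dmrt2, a DM-domain transcription factor (ENSMUSG00000048138, chr19:25672411-25678991 on the plus strand), was lower at a higher level. Its values were 20.4, 15.9, 13.5 and 16.7 FPKM with vehicle and 11.8, 9.18, 7.56 and 7.51 FPKM with the inhibitor. The log2 difference was -0.86 ± 0.22 (SE), and in wild type -0.35, from 10.9 ± 2.49 to 8.65 ± 2.89 FPKM (SD, n = 4). The 7.51 to 11.8 FPKM of the inhibitor-treated knockout overlap the 8.99 to 14.5 FPKM of vehicle-treated wild type.

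Cgnl1, the junction protein paracingulin, stood at 5.84, 5.02, 7.05 and 8.21 FPKM with vehicle and at 3.77, 3.77, 4.08 and 4.66 FPKM with the inhibitor, a log2 difference of -0.60. Jak1, the kinase of cytokine receptors, went from 66.4 ± 5.94 to 54.5 ± 4.5 FPKM (SD, n = 4), a log2 difference of -0.28. Spin1, a reader of methylated histones, and Arid2, a subunit of a chromatin remodelling complex, differed by -0.23 and -0.25. The remaining lower genes were Tsn (translin, an RNA-binding protein, -0.30), Zdhhc15 (a palmitoyltransferase, -0.53), Bbs9 (a subunit of the ciliary BBSome, -0.28), Chi3l1 (a secreted chitinase-like protein, -0.43), Pygl (glycogen phosphorylase, -0.40) and Rxylt1 (a glycosyltransferase of dystroglycan, -0.27).

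Mfsd4a, a transporter of the major facilitator family (ENSMUSG00000059149, chr1:132022806-132068062 on the minus strand), had the smallest p of the higher genes. It was near the filter, at 0.436, 0.619, 0.333 and 0.373 FPKM with vehicle and at 0.748, 1.17, 1.02 and 1.09 FPKM with the inhibitor. Mfsd4a reached the 1 FPKM of the filter only in inhibitor libraries 2 to 4 and in wild-type vehicle library 3 (1.05 FPKM). It was therefore tested only because its values were high in the inhibitor group. Its log2 difference was 0.68 ± 0.15 (SE; limma, unadjusted p = 0.000467, adjusted p = 0.968), against -0.30 in wild type. The difference between genotypes was 0.98 ± 0.21 (SE; limma, unadjusted p = 0.000412). Mfsd4a was chosen for a small p in both tests, so these values are a description of the choice.

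Rspo1, a secreted amplifier of Wnt signalling, stood at 1.49, 1.15, 1.41 and 0.772 FPKM with vehicle and at 2.06, 1.93, 2.31 and 2.24 FPKM with the inhibitor. Unlike Mfsd4a it was higher in wild type too, by 0.41 against 0.65 in the knockout. Nab2, a corepressor of EGR factors, stood at 35.1, 34.4, 35.9 and 31.5 FPKM with vehicle and at 37.0, 39.1, 42.6 and 44.7 FPKM with the inhibitor, a log2 difference of 0.25 ± 0.07 (SE).

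Timp1, an inhibitor of matrix metalloproteinases, differed by 0.42 in the knockout and -0.26 in wild type, with an unadjusted p of 0.00191 for the difference between genotypes. The other higher genes were Carmil2 (an actin regulator, 0.43), Zfp296 (a zinc finger protein, 0.41), Qtrt1 (an enzyme of tRNA modification, 0.34), Msl3l2 (related to a dosage compensation subunit, 0.31), Pmm1 (phosphomannomutase, 0.30), Rhot2 (a mitochondrial GTPase, 0.28), Anapc13 (a subunit of the anaphase-promoting complex, 0.27) and Tango2 (0.22). Carmil2 too passed the filter through the inhibitor group, reaching 1 FPKM only in inhibitor libraries 2 to 4 and wild-type vehicle library 4 (1.16 FPKM). Of the 12 higher genes 5 had the same sign in wild type, as did 7 of the 12 lower genes. The plot of leading genes by library shows 5 of each direction.

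**Figure D4:**
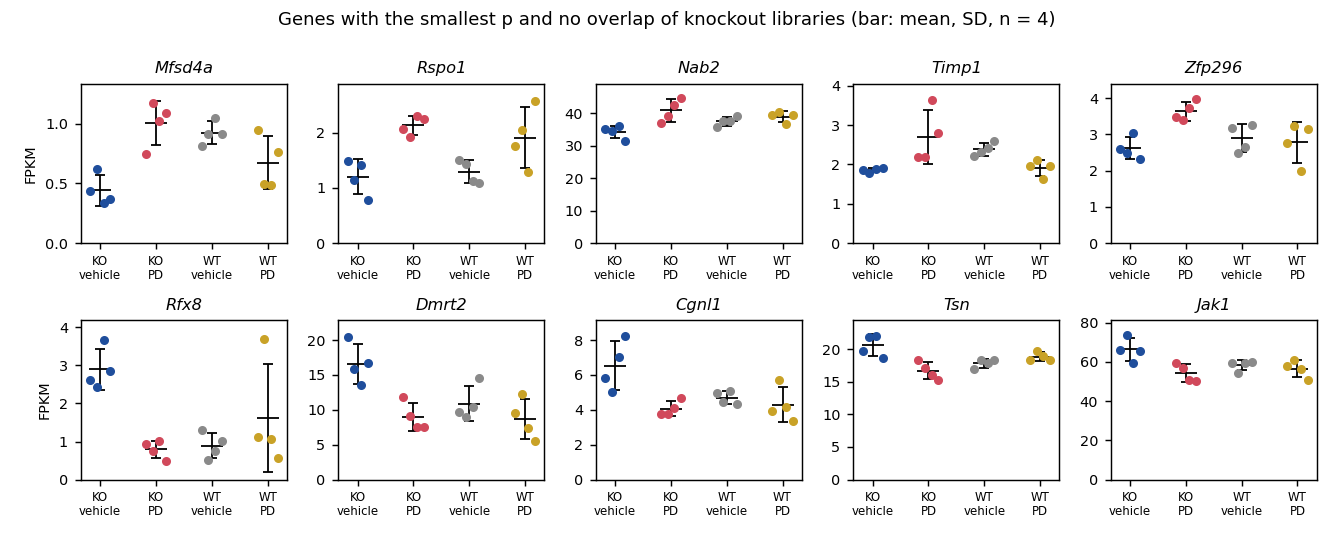
FPKM of 5 higher and 5 lower genes with separate ranges in the knockout, in each of the 16 libraries (points) with the group mean and SD (bars, n = 4). The genes were chosen by the knockout contrast, so the separation of its 2 groups is a description, and the wild-type points give the level without it: Rfx8 stands at 0.52 to 1.29 FPKM in wild type with vehicle.

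Growth and metabolic lists had small median differences of either sign. Ribosomal protein genes were higher in 64 of 65 tested, with a median log2 difference of 0.15, and 2 had an unadjusted p below 0.05, a share near the 2.96% of all genes tested. Rpl5, of the large subunit, stood at 35.2, 38.1, 41.2 and 43.4 FPKM with vehicle and at 42.1, 49.3, 42.3 and 55.9 FPKM with the inhibitor. The median was 0.06 after quantile normalization, with 53 of 65 higher, and it was 0.04 without inhibitor library 4 and 0.23 without inhibitor library 1. Ribosome biogenesis factors, with 14 of 25 higher and a median of 0.01, did not lean with them.

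Respiratory chain genes were higher in 22 of 24 tested, with a median of 0.10, which became 0.01 without inhibitor library 4, 0.19 without vehicle library 4 and 0.01 with the peritubular and spermatid terms. Cox5b, a cytochrome oxidase subunit, stood at 36.8, 37.0, 39.0 and 42.6 FPKM with vehicle and at 37.7, 45.4, 50.0 and 61.8 FPKM with the inhibitor. Genes of ATF4 and amino acid synthesis were higher in 19 of 22, with a median of 0.09 that was 0.22 without vehicle library 4. Phgdh, the first enzyme of serine synthesis, differed by 0.34, from 23.4 ± 2.34 to 30.0 ± 4.58 FPKM (SD, n = 4). Eif4ebp1, a translational repressor and ATF4 target that is counted in the PI3K, AKT and mTORC1 list instead, differed by 0.32. Cholesterol and fatty acid synthesis leaned lower, with 22 of 28 lower and a median of -0.09 (-0.03 without vehicle library 2).

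The p53 targets, of interest after an alkylating agent, were higher in 22 of 26 tested, with a median of 0.13 against -0.01 in wild type. Cdkn1a, the p21 inhibitor of cyclin-dependent kinases, stood at 6.16, 7.41, 6.90 and 18.5 FPKM with vehicle and at 8.86, 11.4, 13.8 and 18.3 FPKM with the inhibitor. Vehicle library 4, also the highest of its group for Fos, Dusp1 and Acta2, held the top value, and the other 3 vehicle libraries lay below every inhibitor library. Psrc1, a spindle protein induced by p53, had the log2 difference 0.34 ± 0.12 (SE; limma, unadjusted p = 0.0141). Xpc, a DNA damage sensor, went the other way with separate ranges, at 26.2, 27.6, 24.3 and 25.9 FPKM against 24.2, 22.7, 22.4 and 22.7 FPKM. Bbc3, the cell death gene PUMA, differed by 0.27 ± 0.16 (SE).

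The cell cycle lists had small medians, positive in the full fit, and only that of G1 entry stayed positive whichever knockout library was left out. Of 22 tested genes of G1 entry 17 were higher, with a median of 0.07 that ran from 0.04 to 0.12 when single knockout libraries were left out and was 0.03 with the peritubular and spermatid terms. Of 34 mitosis and G2/M genes 20 were higher, with a median of 0.03, and Mki67, the proliferation marker Ki-67, stood at 25.4, 37.8, 38.0 and 29.2 FPKM with vehicle and at 32.5, 44.5, 38.2 and 32.1 FPKM with the inhibitor. Of 36 DNA replication genes 23 were higher, with a median of 0.04. Without single knockout libraries the median ran from -0.04 to 0.10 for mitosis and G2/M and from -0.01 to 0.08 for DNA replication. Cdkn1c, the p57 inhibitor, differed by 0.26 ± 0.11 (SE; limma, unadjusted p = 0.0284), and Cdkn1b, the p27 inhibitor, by 0.02. Crosslink and homologous recombination repair, which handles busulfan damage, had 21 of 31 genes lower with a median of -0.04 (-0.12 without vehicle library 4, 0.02 without inhibitor library 4 and 0.03 with the peritubular and spermatid terms). Atr, the replication stress kinase, differed by -0.33 ± 0.16 (SE; limma, unadjusted p = 0.0641).

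Among other signalling pathways, the BMP, activin and TGF-beta list was even, with 14 of 27 higher and a median of 0.00. Id1, a BMP target and inhibitor of helix-loop-helix factors, had the largest difference of that list, at 10.6, 6.31, 6.13 and 24.9 FPKM with vehicle and 21.2, 13.6, 20.4 and 36.6 FPKM with the inhibitor. Vehicle library 4 again exceeded 3 of the inhibitor libraries. The log2 difference of Id1 was 1.06 ± 0.45 (SE; limma, unadjusted p = 0.0332), -0.37 in wild type, and 0.76 with the peritubular and spermatid terms. In the Wnt list 14 of 23 were higher with a median of 0.04. Sfrp1, a secreted Wnt antagonist, was separate between the groups, at 5.96, 6.11, 7.18 and 5.52 FPKM against 4.85, 4.62, 3.89 and 4.82 FPKM. The PI3K, AKT and mTORC1 list had 11 of 26 higher and a median of -0.04. Its 1 member at an unadjusted p below 0.05 was Eif4ebp1, which was higher (limma, unadjusted p = 0.0105), beside 2.96% of all genes tested.

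**Figure D5:**
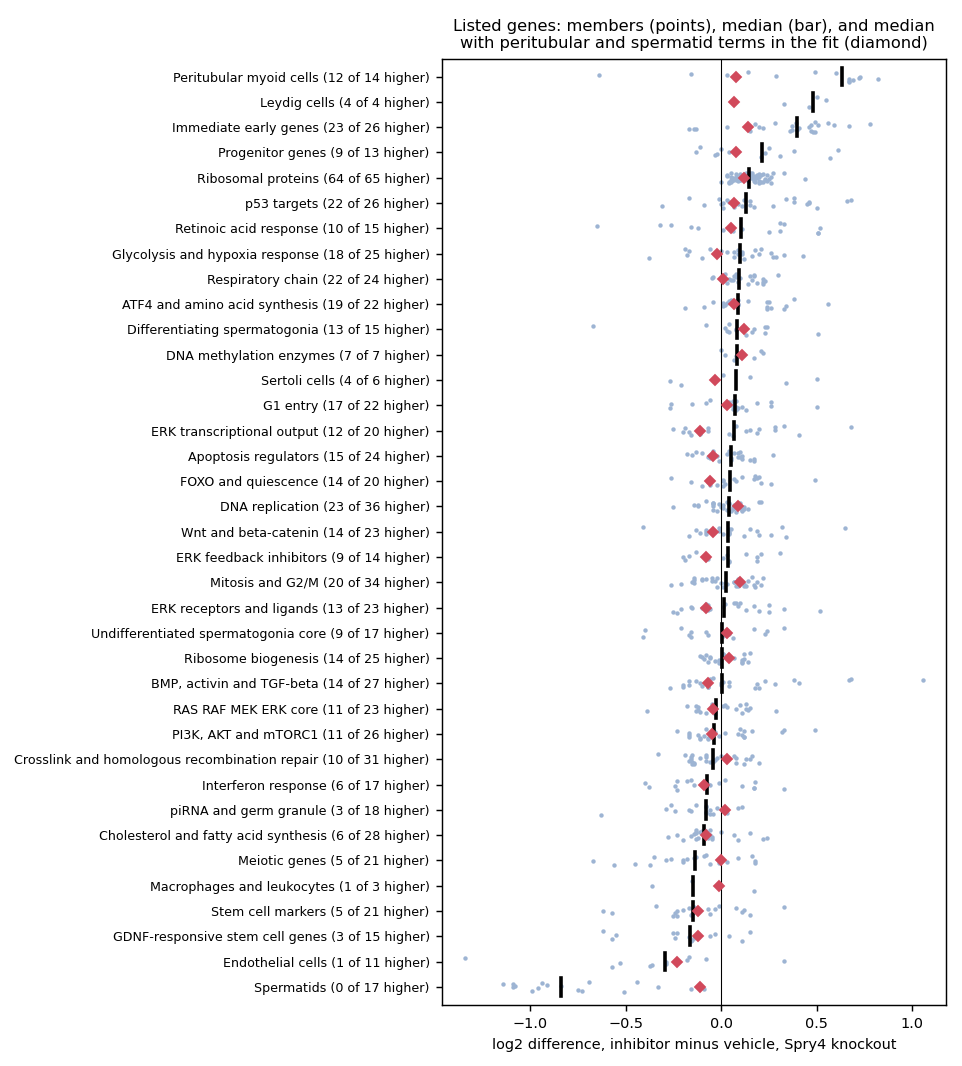
Log2 difference (inhibitor minus vehicle, Spry4 knockout) of the tested members of each list (points), their median (black bar) and the median with the mean levels of the peritubular and spermatid lists as terms of the fit (red diamond). Immediate early genes have a median of 0.40, which becomes 0.14 with the terms, and peritubular genes one of 0.63, which becomes 0.08. The peritubular and spermatid lists are adjusted here for their own mean levels. Their shift with the terms is set by the fit and is not a finding. Most other medians lie within 0.2 of 0.

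Genes of later germ cells were mostly lower with the inhibitor, by amounts that moved with single libraries. Of 21 tested meiotic genes 16 were lower, with a median of -0.14, and of 18 piRNA and germ granule genes 15 were lower, with a median of -0.08. Without vehicle library 3 the medians were -0.01 and -0.03, and without vehicle library 4 they were -0.30 and -0.16. The piRNA median was also -0.18 without inhibitor library 2, and it was 0.01 without inhibitor library 4 and 0.02 with the peritubular and spermatid terms. Sycp1, of the synaptonemal complex, stood at 39.9, 45.3, 72.1 and 17.0 FPKM with vehicle and at 36.4, 47.2, 19.3 and 13.9 FPKM with the inhibitor. Hormad1, a meiotic chromosome axis protein, had 25.3 FPKM in vehicle library 3 and between 4.22 and 12.1 FPKM in the other 7 libraries. Piwil1, the PIWI protein of meiotic cells, had 18.4 FPKM in vehicle library 3 and at most 6.13 FPKM elsewhere in the knockout.

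The spermatid list turned with that library. All 17 tested members had a negative difference, with a median of -0.84, and without vehicle library 3 the median was 0.50, with 15 of 17 positive. Without vehicle library 4 it was -1.60. Prm1, a protamine of sperm chromatin, stood at 16.5, 1.77, 739 and 0.853 FPKM with vehicle and at 32.5, 5.96, 4.02 and 9.33 FPKM with the inhibitor. Prm2 had 874 FPKM in vehicle library 3 and between 0.467 and 31.5 FPKM in the others.

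Markers of other testis cells are given for the whole of each list. Of 14 tested peritubular genes 12 were higher, with a median of 0.63 that was 0.24 without vehicle library 3 and 1.01 without vehicle library 4, and -0.47 in wild type. Myh11, smooth muscle myosin, stood at 548, 266, 146 and 825 FPKM with vehicle and at 582, 402, 464 and 1030 FPKM with the inhibitor, and Tagln, transgelin, differed by 0.69 ± 0.66 (SE). The 4 tested Leydig genes were all higher, with a median of 0.48, or 0.19 without vehicle library 3 and 0.79 without vehicle library 4, at a summed level of 9.5 to 34.3 FPKM with vehicle and 16.6 to 40.2 FPKM with the inhibitor. Of 11 tested endothelial genes 10 were lower, with a median of -0.29 that was -0.17 without vehicle library 3, and Cdh5, the endothelial cadherin, had 6.62 FPKM in that library against 1.86 to 4 FPKM in the others. Endothelial sums were 69.2 to 112.2 and 63.7 to 105.1 FPKM. Sertoli sums were 19.1 to 29.9 and 17.9 to 34.1 FPKM, macrophage sums 7.8 to 16.1 and 8.1 to 11.1 FPKM, and erythrocyte sums 0.2 to 8.1 and 0.1 to 0.6 FPKM.

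Short and long transcripts differed in direction. Among protein-coding genes in quartiles of exon length, the median log2 difference was 0.059 in the shortest, 0.017 and -0.008 in the middle quartiles, and -0.048 in the longest. The share of genes higher with the inhibitor was 64.0%, 54.9%, 47.4% and 35.5%. The 62 protein-coding genes separate and higher had a median exon length of 3614 bases, the 137 separate and lower of 5559 bases, and all 11719 tested of 4463 bases. Within libraries, the mean log2 level of the shortest minus the longest quartile was 0.19, 0.15, 0.45 and 0.31 with vehicle, and 0.27, 0.25, 0.37 and 0.51 with the inhibitor, so the groups overlap. The part of transcript length in the list medians was not tested.

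The inhibitor differences of the knockout were set beside those of wild type, which use other libraries. Over 12907 genes 45.1% had the same sign in both genotypes, and the Pearson correlation of the 2 sets of log2 differences across genes was -0.296, where genes share libraries within each genotype and are not independent. Peritubular sums of the wild-type inhibitor libraries ran from 1217.5 to 12168.1 FPKM, and the part of other cells in this correlation was not tested. Of the 220 genes with separate ranges in the knockout, 116 (52.7%) had the same sign in wild type and 3 were also separate there in the same direction, where 85 genes (0.659%) were separate in all. The test of the difference between genotypes gave 0 of 12907 genes (0%) with limma at an adjusted p below 0.05, the smallest being 0.999, and 1.71% of genes at an unadjusted p below 0.05. No gene's difference was therefore shown to be particular to the knockout. For genes named for a small p in the knockout, such as Rasa1, Adgra3 and Cyp26a1, the p of this test is shaped by that choice.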

How the data were processed

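Sorted spermatogonia of 16 libraries were measured by stranded polyadenylated RNA sequencing. The authors deposited 1 table of FPKM values per gene symbol and library. The submitters' processing notes name FastQC, STAR 2.7.10a and edgeR 4.0.14 and the builds mm10 and GRCm39. Which build was used for alignment, and which annotation gave the gene lengths, is not given in the sources used here.

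Groups came from the sample titles. Genes with at least 1 FPKM in 4 of 16 libraries were tested on log2(FPKM + 0.5) in limma 3.58.1 (R 4.3.3), with 1 mean per group over all 16 libraries, a variance trend and Benjamini-Hochberg adjustment over 12907 genes at a threshold of 0.05. The spread is shared by the 4 groups. No count model was used for the main test, because the values are FPKM. The script was tested on simulated data. Exon lengths and gene positions came from GENCODE M21 (GRCm38), matched by symbol for 96.4% of genes. With these lengths, 92.9% to 94.3% of values under 100 reads were within 0.1 of a whole read, and the recovered reads entered limma voom as an alternative. Whole reads depend on these lengths matching those of the authors, so depths are estimates.

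Named genes were a set of pathway and germ cell genes taken whatever their values, the 12 higher and 12 lower genes with the smallest p among those with separate ranges, the 3 members of each list with the smallest p, the 4 genes with the smallest p for the difference between genotypes, and markers of other cells. From these, the text gives those its comparisons use. The members and lists were chosen with earlier results of these data known, so no list was tested. Alternatives were the pseudocount, the filter, the libraries in the fit, a replicate block, the set of library numbers in the column headers, array weights, median-of-ratios scaling and quantile normalization, the variance trend, levels of other cells as terms, voom, and each library left out.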

Additional observations from a re-analysis of the deposited data

Results flagged for a closer look

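Of 204 groups of 4 libraries examined for a value far from the other 3, 18 were marked. Chance marks about 1 in 20 groups of independent, normally distributed values. That rate need not hold here, since FPKM was not log-transformed, the groups share libraries and some genes were named for a small p. Vehicle library 3 held the highest value for Prm1 (739 FPKM), Prm2 (874 FPKM), Crisp2, a sperm protein (39.2 FPKM), Piwil1 (18.4 FPKM) and Chi3l1 (1.72 FPKM). It also held the highest sum of spermatid markers (3486 FPKM) and of erythrocyte markers (8.1 FPKM).

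Vehicle library 4 held the highest value for Dusp4 (30.1 FPKM), Dusp1 (107 FPKM), Klf2 (153 FPKM) and Cdkn1a (18.5 FPKM). Vehicle library 2 was highest for Pygl (27.8 FPKM) and lowest for Il17rd (10.5 FPKM), and vehicle library 1 was lowest for T (8.62 FPKM). Inhibitor library 1 was lowest for Cyp26a1 (2.29 FPKM) and Msl3l2 (6.96 FPKM) and highest for Xpc (24.2 FPKM) and Crisp2 (2.82 FPKM).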

How the results depend on the processing

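No alternative gave a gene with an adjusted p below 0.05, in 22 settings each for the inhibitor contrast and for the difference between genotypes. The count at an unadjusted p below 0.05, 382 of 12907, moved by more than 1.5 times with the library-number set as a term (702), array weights (1709) and peritubular and spermatid terms (824). The count also moved with a filter of 5 FPKM, to 250, but of only 8694 genes tested. Without single knockout libraries it ranged from 192 to 705, the ends being without inhibitor libraries 3 and 2; it was 193 without inhibitor library 4, 653 without inhibitor library 1 and 612 without vehicle library 4. For the difference between genotypes, the count (1.71% of 12907 genes) became 337 of 16383 with no filter and 120 of 8694 with a filter of 5 FPKM. It was 3054 with array weights, 412 with the library-number set and 1009 with the terms, and ranged from 143 to 378 without single libraries. The replicate block gave 1354 genes at an unadjusted p below 0.05 and a smallest adjusted p of 0.465. The replicate numbers were not taken as pairs, since deviations of same-numbered libraries correlated at 0.366, 0.512, -0.086 and 0.734, and the replicate 3 libraries did not correlate best with each other. Those of replicates 1, 2 and 4 did, and whether the numbers stand for pairs was not settled.

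Of 2160 values of 95 genes under the alternatives, 2119 kept their direction and 41, in 17 genes, reversed. With the peritubular and spermatid terms the log2 difference was -0.14 for Cdkn1b, -0.10 for Ier3, -0.15 for Etv1, -0.20 for Spry2, -0.08 for Myc, 0.64 for Prm1, -0.00 for Fgfr1, -0.08 for Spry1 and 0.43 for Prm2. Prm1 and Prm2 belong to the spermatid list, so their values with its mean as a term are partly set by the fit. With array weights it was -0.06 for Cdkn1b, -0.13 for Etv1 and 0.06 for Phlda1, with quantile normalization -0.03 for Zbtb16, and without replicate 1 of both groups -0.03 for Cdkn1b and for Spry2. Leaving out single libraries gave -0.12 to 0.12 for Cdkn1b, -0.08 to 0.48 for Ier3, -0.22 to 0.20 for Etv1, -0.02 to 0.29 for Kit, -0.23 to 0.02 for Phlda1, -0.14 to 0.27 for Spry2, -0.01 to 0.63 for Myc, -1.63 to 1.40 for Prm1, -2.05 to 1.23 for Prm2, -1.79 to 0.17 for Crisp2, -0.02 to 0.38 for Spry4, -0.18 to 0.26 for Spry1, -0.30 to 0.06 for Egr1, -0.03 to 0.10 for Dusp7 and -0.02 to 0.25 for Ccnd1. A list median counted as moved when it shifted by more than the spread between replicates of the list's mean level. Vehicle library 3 widens that spread for the spermatid list, whose median of -0.84 became 0.50 without it and did not count. A low count is therefore not a sign of stable medians. Of 813 list medians 5 moved by more than the spread between replicates: DNA methylation enzymes with array weights (0.18), apoptosis regulators with the terms (-0.04), and, at the 5 FPKM filter, progenitor (0.04), interferon (0.11) and Sertoli genes (0.34). The cause was not tested. The precision was set by 4 libraries a group, with a median standard error of 0.146, and genes near 1 FPKM depend on the pseudocount.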
